A study of Mus musculus with 8 samples.

Results

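The genes described here are 46 translation factors of the mouse: the initiation factors eIF1 to eIF6 with their regulators, the elongation factors eEF1 and eEF2, and 5 proteins that work on the ribosome or on the mRNA it reads. They were chosen by name, as gene models whose Ensembl identifier maps to the symbols of the known complexes. All 46 were found among the 36811 gene models of the deposited table, and all 46 were among the 11260 gene models that passed the filter on low values (an FPKM of 1 or more in 4 or more of the 8 libraries).

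The 8 libraries came from regulatory T cells (Treg cells) of the spleen, sorted by flow cytometry after CD4+ T cell enrichment. All were taken from C57BL/6 mice of 12 to 13 weeks with the genotype Foxp3EGFP-DTR Bach2tdRFP/+. The first allele marks Treg cells green from the Foxp3 locus, as a fusion with the diphtheria toxin receptor, and no toxin treatment is given in the labels. The second marks activity of the Bach2 locus red on 1 allele, the other allele being wild type. Cells positive for the green reporter were divided into those high for the red reporter (HI, 4 libraries) and those low for it (LO, 4 libraries), with 2 female (F1, F2) and 2 male (M1, M2) libraries in each group. Both groups thus share every allele and differ by the sort gate, so no library comes from a mouse without the reporters. Labels leave unsaid whether libraries of the same name in both groups came from 1 mouse, and whether any came from separate mice, so a p-value here reflects spread among libraries, which may be technical.

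Translation starts when eIF2 brings the initiator tRNA to the small ribosomal subunit, held there by eIF1, eIF1A and the large scaffold eIF3, while eIF4 proteins bind the mRNA cap and unwind the leader. After eIF5 and eIF5B have helped the large subunit to join, eEF1 delivers each aminoacyl-tRNA and eEF2 moves the ribosome along. The mRNAs of elongation factors and of some initiation factors begin with a run of pyrimidines, the 5′ terminal oligopyrimidine (TOP) tract, which they share with ribosomal protein mRNAs and through which mTOR controls their translation. BACH2, the product of the reporter's locus, is a transcriptional repressor that limits effector differentiation of T cells, and resting Treg cells hold more of it than effector Treg cells do.

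Library depth could be read only relative to the HI F1 library, and lay between 0.636 and 1.27 of it in 7 libraries and at 5.27 times it in LO M2. Bach2 itself, the gene behind the gate, stood at 15.6 ± 5.56 FPKM in HI and 0.691 ± 0.187 FPKM in LO (SD, n = 4 each), and Foxp3, which defines Treg cells, at 14.2 ± 0.783 and 14.7 ± 3.97 FPKM. Defining T cell and Treg genes were present in every library, with summed levels of 5354 to 6430 FPKM in HI and 5881 to 7709 FPKM in LO. Most of these sums was Cd3g, at a mean of 4140 FPKM in HI and 4643 FPKM in LO. Over all tested genes, 524 were higher and 410 lower in LO than in HI, 8.29% in all (limma on log2(FPKM + 1), Benjamini-Hochberg adjusted p below 0.05, the rule for every call below). Of the 8 T cell and Treg genes, Il2ra was called lower in LO (mean 75.6 FPKM in HI and 27.7 FPKM in LO). Ctla4 (101 and 251 FPKM) and Ikzf2 (10.2 and 22.1 FPKM) were called higher.

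Of the 46 translation factors, 9 were lower in LO cells, none was higher and 37 did not pass the test, where 3.64% of all tested genes were called lower and 4.65% higher. The 9 were the elongation factor genes Eef1b2, Eef1g, Eef1d and Eef2, the initiation factor genes Eif5a and Eif5, and Rack1, Tpt1 and Naca. Their HI levels were 1.42 to 2.08 times their LO levels, as ratios of mean FPKM. The median difference of the 46 was -0.39 on the log2(FPKM + 1) scale, LO minus HI, against -0.03 over all tested genes. A difference below 0 was measured for 38 members, 82.6% of them, against 52.0% of all tested genes. In 20 members (43.5%) no LO library reached the lowest HI library, against 7.18% of all tested genes. In none did all LO libraries lie above, against 7.9% of all tested genes. At an unadjusted p under 0.05 there were 21 lower members, where 10.3% of all tested genes were lower, and 2 higher ones. Because these are bulk samples, fewer cells of a type and less RNA per cell cannot be told apart.

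The members' median level was 190.0 FPKM, against 16.7 FPKM over all tested genes, and abundant genes were called lower more often. Among tested genes with a mean of at least 100 FPKM over the 8 libraries, a limit set after the values were seen, 10.5% were called lower, and 9 of the 29 members above it (31.0%). Groups did not overlap, with LO below, in 255 of those 1498 abundant genes and in 17 of the 29 members (58.6%), and a difference below 0 was measured for 59.5% of them and 89.7% of the 29. With the members and the cytosolic ribosomal proteins left out, 1392 abundant genes remained. Of these, 5.53% were called lower, 11.6% did not overlap with LO below, and 56.6% had a difference below 0. Summed over the 46 genes, FPKM were 25223, 24170, 27280 and 24255 in the HI libraries F1, F2, M1 and M2, and 16360, 17489, 15483 and 18467 in the LO libraries. The groups did not overlap, and the means were 25232 ± 1446 and 16950 ± 1303 FPKM (SD, n = 4 each). Summed over all gene models, FPKM were also higher in every HI library (1836669 to 2142813) than in every LO library (1494240 to 1758938). The members' sums were not scaled to these totals. Eef1a1 and Rack1 alone made up 39.4% to 42.9% of the members' sum in HI and 33.8% to 41.5% in LO. Quantile normalization reduced the differences of 4 called members by over 1.5 times, to -0.37 for Rack1, -0.33 for Tpt1, -0.28 for Eef2 and -0.27 for Eif5a, of which Rack1 alone still passed (limma adjusted p = 0.0425).

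**Figure D1:**
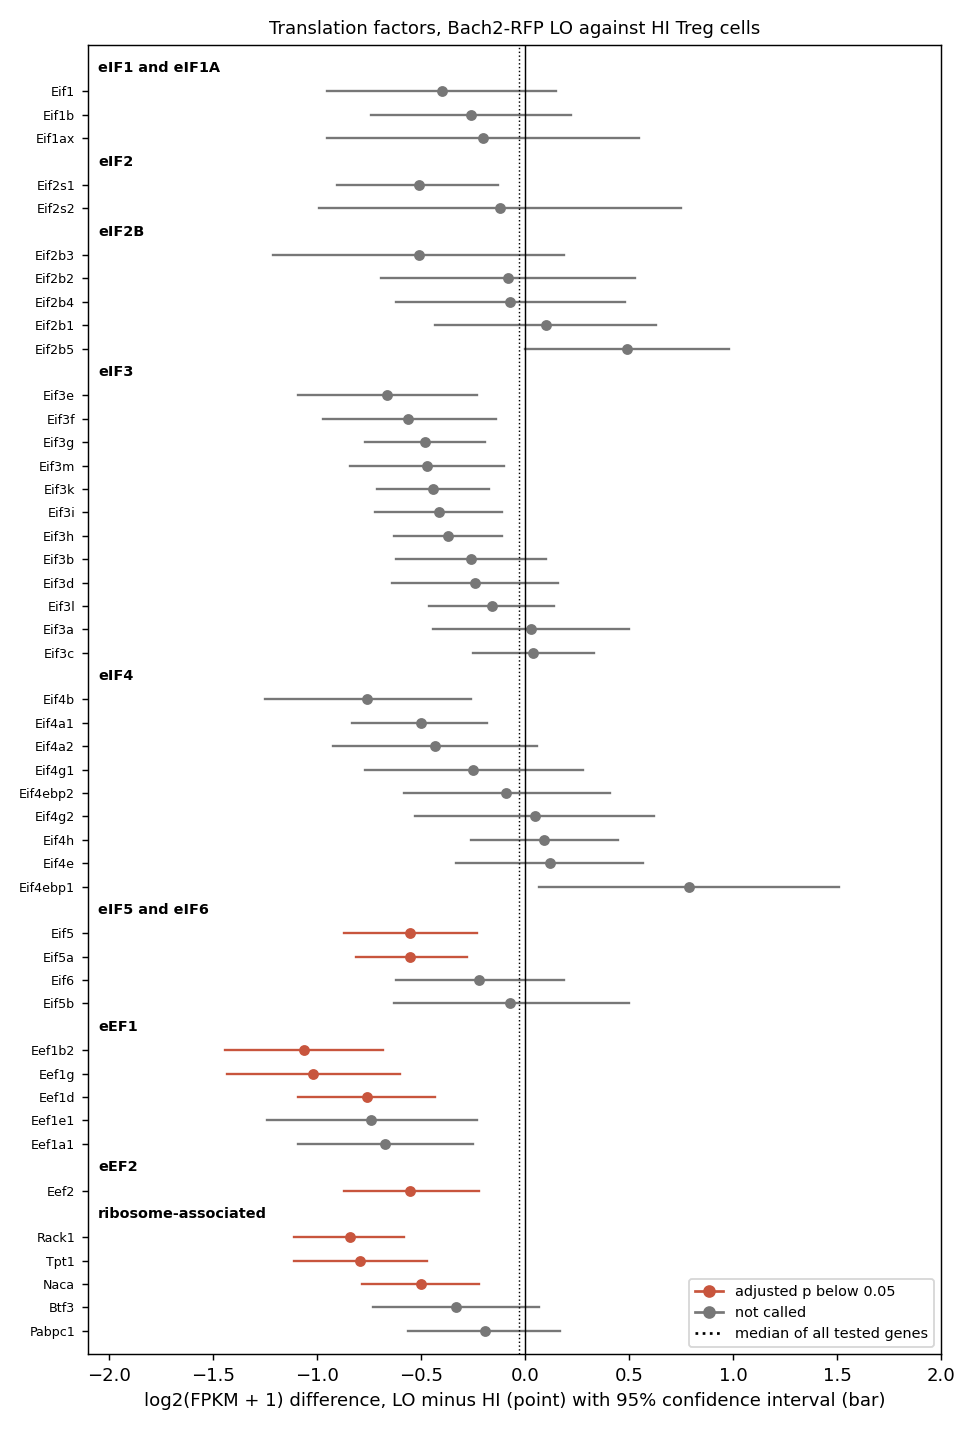
Difference between LO and HI for each of the 46 translation factors (x axis, log2(FPKM + 1), LO minus HI; point with its 95% confidence interval), ordered by complex and coloured where the adjusted p was below 0.05. The 9 called genes all lie to the left of 0, and the intervals of Eif4ebp1 and Eif2b5, which begin at 0.07 and 0.00, are the only ones above 0.

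Grouped by role, elongation factors had 4 of 6 members called lower and a median of -0.75, initiation factors 2 of 35 (5.71%, against 3.64% of all tested genes) and a median of -0.25, and ribosome-associated proteins 3 of 5 and a median of -0.50. The 11 members listed here as classical TOP mRNAs were Eef1a1, Eef1b2, Eef1d, Eef1g, Eef2, Eif3e, Eif3f, Eif3h, Pabpc1, Rack1 and Tpt1. Of these, 6 were called (54.5%, against 3.64% of all tested genes), 9 did not overlap between groups (81.8%, against 7.18%), and the median was -0.67. Among the other 35 members 3 were called (8.57%, against 3.64% of all tested genes), 11 did not overlap between groups (31.4%, against 7.18%), and the median was -0.25. The difference between these groups was not tested, since members of a list are not replicates. Median levels were 717 FPKM for the 11 TOP members, 117 FPKM for the other 35 and 136 FPKM for initiation factors. Of the 1498 tested genes with a mean of at least 100 FPKM, 10.5% were called lower and 255 had LO wholly below HI. Without members and ribosomal proteins, these were 5.53% and 11.6% of the remaining 1392. The called shares of 8.57% and 5.71% thus lay below 10.5% and above 5.53%, and 54.5% lay above both.

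Of the 11 TOP genes, 6 had a promoter window. A pyrimidine run of at least 8 bases near the start was found in 4 of the 6, and not in Eef1b2 or Tpt1, both called lower. Shorter runs were not counted, so the scan does not show which genes lack the tract. The 4 are shown here because the class is named for such a tract. RefSeq promoter windows (build GRCm38.p6, not the build of the FPKM table) were found for 36 of the 46 members. The windows below run 5′ to 3′ on the gene's strand, each is 30 bases long, and capitals mark the longest run of pyrimidines.
Rack1, chr11:48800347-48800376, plus strand: gaggccgCTCTTTCTTTTTCTCCacagggt
Eef1a1, chr9:78481710-78481739, minus strand: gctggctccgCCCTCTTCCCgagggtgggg
Eif3f, chr7:108934404-108934433, plus strand: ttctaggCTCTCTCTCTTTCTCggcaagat
Eef2, chr10:81176634-81176663, plus strand: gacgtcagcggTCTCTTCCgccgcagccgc
Counted with the annotated start as position 1, the run began at -6 in Rack1, -5 in Eef1a1, -4 in Eif3f and 15 in Eef2, so it overlapped the annotated start in the first 3 and lay after it in Eef2. Rack1 and Eef2 were called lower, and Eef1a1 and Eif3f were not. A run of at least 8 bases made only of C and T, with at least 1 C, between 50 bases before and 50 bases after the start on the sense strand, was present in 1 or more windows of 15 of the 36 members (41.7%) and in 38.9% of 27025 RefSeq genes. It was present in 3 of the 7 called members with a window and in 12 of the 29 others.

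A second set of letters in these windows is CACGTG, a palindrome that reads the same on both strands, cannot lie inside a pyrimidine run, and is the core of the E-box that MYC and related factors bind. It was present in the 300 bases around the start in 10 of 36 members (27.8%), against 8.09% of 27025 RefSeq genes. For this motif and for the pyrimidine run, the RefSeq genes were not limited to genes tested here, and no share among tested or abundant genes was counted. The letters were present in 2 of the 7 called members with a window, Eef2 and Eif5a, and in 8 of the 29 others (27.6%).
Eef2, chr10:81176576-81176605, plus strand: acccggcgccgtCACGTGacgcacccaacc
Eif5a, chr11:69921443-69921472, minus strand: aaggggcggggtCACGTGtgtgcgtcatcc
These 2 are shown because both genes were called, with the 6 letters in capitals. Uncalled members with the letters were Eif1b, Eif3a, Eif3f, Eif3k, Eif4a1, Eif4e, Eif4g1 and Eif4h, which included genes with differences near 0 such as Eif4e and Eif4h. Myc, which encodes the factor, stood at 110 ± 19.9 FPKM in HI and 29.5 ± 4.09 FPKM in LO (SD, n = 4 each) and was called lower (limma adjusted p = 0.000485). Whether Myc has a part in the members' differences was not tested.

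Of the 5 eEF1 genes, 3 were lower in LO cells, and in all 5 the groups did not overlap. Eef1b2, Eef1d and Eef1g encode the exchange factor that reloads eEF1A with GTP, and all 3 were called. Eef1b2, its catalytic beta subunit, was at 844, 1056, 1158 and 819 FPKM in the HI libraries F1, F2, M1 and M2, and at 488, 509, 511 and 352 FPKM in the LO libraries. Every HI library was above every LO library, with a gap between the lowest HI and the highest LO values. Its difference was -1.06 ± 0.172 (log2(FPKM + 1), SE, limma adjusted p = 0.00439), the widest among the members, and HI was 2.08 times LO.

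Eef1g, the gamma subunit that anchors the exchange factor, was at 379, 312, 399 and 363 FPKM in HI and at 203, 172, 128 and 225 FPKM in LO. LO M1 was the lowest library and LO M2 the highest of its group, still below HI F2. The difference was -1.02 ± 0.185 (log2(FPKM + 1), SE, limma adjusted p = 0.00793). Eef1d, the delta subunit and a further exchange factor, was at 777, 546, 619 and 541 FPKM in HI and 335, 402, 342 and 376 FPKM in LO. HI F1 stood above the other HI libraries, and no LO library reached the lowest of them. Its difference was -0.76 ± 0.148 (SE, limma adjusted p = 0.0113).

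Eef1a1 carries aminoacyl-tRNA to the ribosome and was the most abundant member per transcript length. It was at 6188, 5832, 6263 and 6137 FPKM in HI, and at 3109, 4049, 3082 and 5518 FPKM in LO. HI libraries lay within a narrow range, while LO libraries spread widely and LO M2 came close to HI. Its difference of -0.67 (95% confidence interval -1.09 to -0.25) had a limma adjusted p of 0.0573 and did not pass. Without LO M2 it passed, at -0.85 with a limma adjusted p of 0.00488, and it did not pass without any other 1 library. The fifth eEF1 gene, Eef1e1, encodes a small protein of the multi-synthetase complex related to eEF1 subunits, and had 39.5 ± 9.15 FPKM in HI and 23.0 ± 3.32 FPKM in LO (SD, n = 4 each), without overlap and with a limma adjusted p of 0.0822.

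Eef2, the GTPase that moves the ribosome by a codon, was at 1342, 1182, 1373 and 1264 FPKM in HI and at 792, 959, 732 and 1081 FPKM in LO. Groups did not overlap, and as for Eef1a1 the LO libraries F2 and M2 were above F1 and M1. The difference was -0.55 ± 0.146 (SE, limma adjusted p = 0.0481), close to the threshold. With 1 library left out at a time the adjusted p by limma ran from 0.0190, without LO M2, to 0.123, and the call was lost in the 7 cases other than LO M2.

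Among the proteins that sit on the ribosome, Rack1 and Tpt1 were lower by similar amounts. Rack1 is a scaffold of the small subunit near the mRNA exit, and had the smallest p of the members. It was at 4042, 3694, 4540 and 4259 FPKM in HI and at 2416, 2406, 2232 and 2145 FPKM in LO. LO libraries lay close together, and all were well below the HI libraries. The difference was -0.84 ± 0.117 (log2(FPKM + 1), SE, limma adjusted p = 0.00200). Tpt1 encodes the translationally controlled tumor protein, a binding partner of elongation factors, and was at 2001, 1858, 2398 and 1602 FPKM in HI and 1189, 1191, 1085 and 1043 FPKM in LO. Again the groups did not overlap, at -0.79 ± 0.142 (SE, limma adjusted p = 0.00769).

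Naca and Btf3 encode the alpha and beta subunits of the nascent polypeptide-associated complex, which binds new proteins as they leave the ribosome. Naca was at 493, 425, 544 and 426 FPKM in HI and 331, 320, 347 and 330 FPKM in LO, a difference of -0.50 ± 0.126 (SE, limma adjusted p = 0.0380). LO libraries were nearly equal, and the HI libraries were all above them. The call was lost whichever library was left out, with limma adjusted p of 0.0512 to 0.111. Btf3 was at 636 ± 126 FPKM in HI and 503 ± 79.9 FPKM in LO (SD, n = 4 each), with overlapping groups and a limma adjusted p of 0.340. Pabpc1, the cytoplasmic poly(A)-binding protein, was at 691 to 1006 FPKM in HI and 578 to 802 FPKM in LO, and its groups overlapped (difference -0.19, 95% confidence interval -0.56 to 0.17).

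**Figure D2:**
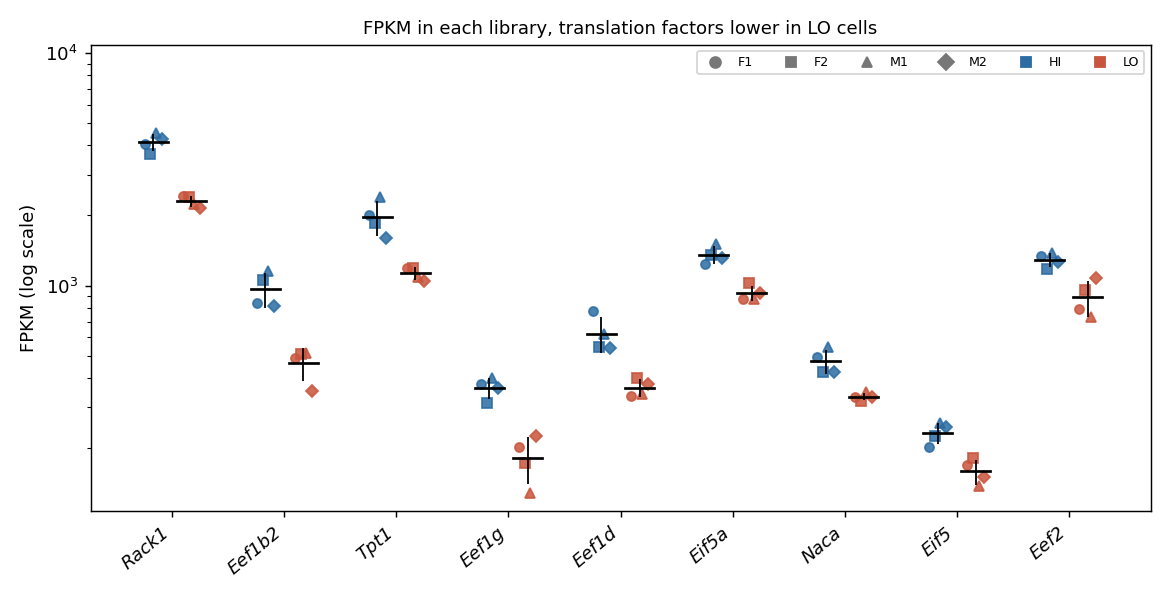
FPKM on a log axis in each library for the 9 translation factors called lower in LO (blue HI, red LO; marker shapes for F1, F2, M1 and M2; horizontal bars are means and vertical bars SD, n = 4). In each of the 9 genes the 4 LO libraries lie below the 4 HI libraries.

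Both called initiation factors act late in initiation or beyond it. Eif5a carries hypusine, an amino acid found in no other protein, and helps the ribosome through difficult stretches and termination. It was at 1240, 1356, 1515 and 1314 FPKM in HI and at 875, 1025, 879 and 927 FPKM in LO. All HI libraries were above all LO libraries, with a difference of -0.55 ± 0.118 (SE, limma adjusted p = 0.0185). The call was lost without HI F2, LO F1 or LO M1, at limma adjusted p of up to 0.0594. Eif5, which triggers GTP hydrolysis by eIF2 at the start codon, was at 203, 226, 256 and 247 FPKM in HI and at 169, 181, 137 and 150 FPKM in LO, at -0.55 ± 0.144 (SE, limma adjusted p = 0.0457). Here the groups were separated by less, between HI F1 and LO F2, and the call was lost whichever library was left out (limma adjusted p of 0.0549 to 0.112).

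Eif6 keeps the large subunit from joining too early, and Eif5b is the GTPase of subunit joining. Neither was called. Eif6 was at 514 ± 33.7 FPKM in HI and 451 ± 112 FPKM in LO, and Eif5b, the least abundant member, at 9.99 ± 2.47 and 9.33 ± 0.721 FPKM (SD, n = 4 each). The LO libraries of Eif6 spread from 322 FPKM in M1 to 579 FPKM in M2, on both sides of HI.

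Among the genes listed for eIF1, eIF1A and eIF2, none was called. Eif1, Eif1b and Eif1ax, which encode eIF1, a close relative of it and eIF1A, had differences of -0.40, -0.26 and -0.20 with overlapping groups. The alpha subunit of eIF2, Eif2s1, whose phosphorylation shuts down initiation under stress, was at 46.9, 40.4, 46.2 and 36.0 FPKM in HI and 30.9, 29.1, 27.2 and 29.7 FPKM in LO. LO libraries did not reach the HI libraries, but the difference of -0.51 (95% confidence interval -0.90 to -0.13) had a limma adjusted p of 0.111. Eif2s2, the beta subunit, was at 16.5 ± 5.68 and 15.8 ± 7.60 FPKM (SD, n = 4 each).

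The 5 subunits of eIF2B, the exchange factor that recycles eIF2, had a median of -0.07 and no called gene. They did not move together: Eif2b3 had a difference of -0.51 (95% confidence interval -1.21 to 0.19), and Eif2b5, the catalytic epsilon subunit, had one of 0.49 (0.00 to 0.98). Eif2b5 was at 37.1, 50.7, 53.5 and 46.7 FPKM in HI and at 44.6, 78.7, 71.9 and 74.4 FPKM in LO. It was higher in 3 of the 4 LO libraries than in any HI library, and LO F1 lay within the HI range (limma adjusted p = 0.239). Summed levels of the 5 genes were 332 ± 50.9 FPKM in HI and 328 ± 30.8 FPKM in LO (SD, n = 4 each).

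The members include 12 subunits of eIF3, the scaffold that recruits the small subunit to mRNA. These gave no call and a median of -0.39. The groups did not overlap in 6 of them, where 7.18% of all tested genes and 255 of the 1498 with a mean of at least 100 FPKM had LO wholly below HI. Their summed FPKM were 3994, 3588, 4300 and 3570 in HI and 2892, 2898, 2866 and 3074 in LO. No LO sum reached the lowest HI sum, and the LO sums were close to each other (2932 ± 95.5, against 3863 ± 351 in HI, SD, n = 4 each). The eIF3 sums were not scaled to the FPKM totals of the libraries, which were lower in every LO library than in any HI library. At an unadjusted p under 0.05, 7 of the 12 were lower, against 10.3% of all tested genes and 317 of the 1498 abundant ones.

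Those with the lowest adjusted p missed the threshold by little. Eif3k was at 768, 754, 829 and 714 FPKM in HI and 589, 564, 615 and 493 FPKM in LO (difference -0.44, limma adjusted p = 0.0519). Eif3g was at 369, 395, 390 and 375 FPKM in HI and 319, 254, 238 and 292 FPKM in LO (-0.48, adjusted p = 0.0527 by limma). In both genes every LO library was below every HI library. Eif3e, a subunit whose loss affects selected mRNAs, had the widest difference of the 12, -0.66 (95% confidence interval -1.09 to -0.23), with limma adjusted p = 0.0675. Eif3j1, an eIF3 subunit outside the member list, had a wider one, -1.12, with overlapping groups. It was at 9.10 ± 3.71 FPKM in HI and 3.92 ± 2.39 FPKM in LO, and was not called (SD, limma adjusted p = 0.174).

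Among the other subunits in the member list, differences ran from -0.56 to 0.04. Eif3a and Eif3c, the largest scaffold subunits, were at 60.3 ± 5.71 and 150 ± 9.47 FPKM in HI and at 62.9 ± 16.8 and 154 ± 13.4 FPKM in LO (SD, n = 4 each). Their differences were 0.03 (95% confidence interval -0.44 to 0.50) and 0.04 (-0.25 to 0.33). Eif3b, a subunit with an RNA-binding domain, had -0.26 (-0.62 to 0.10), and Eif3d, which can bind the cap itself, -0.24 (-0.64 to 0.16). Eif3f, Eif3h, Eif3i and Eif3m had differences of -0.56, -0.37, -0.41 and -0.47, and Eif3l of -0.16. Eif3f and Eif3l were the subunits among these 5 with overlapping groups.

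**Figure D3:**
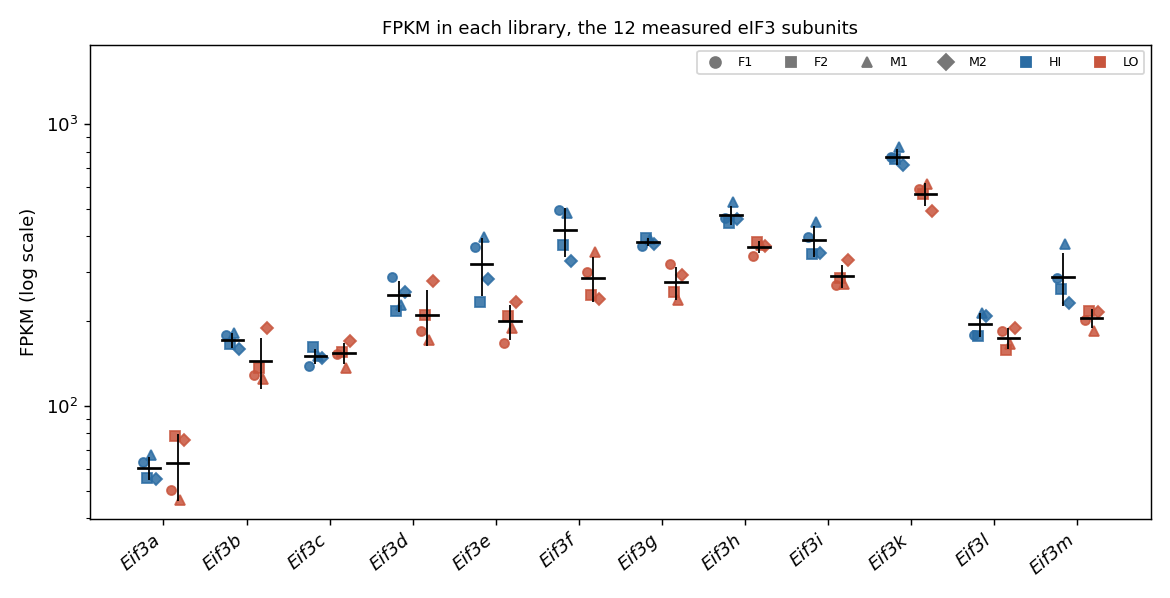
FPKM on a log axis in each library for the 12 eIF3 subunits among the members (blue HI, red LO; marker shapes for F1, F2, M1 and M2; horizontal bars are means and vertical bars SD, n = 4). Groups are apart in Eif3e, Eif3g, Eif3h, Eif3i, Eif3k and Eif3m, and lie on each other in Eif3a and Eif3c.

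The cap-binding and unwinding factors of the eIF4 group had a median of -0.09 and no call. Eif4a1, the helicase of the cap complex, was at 142, 141, 146 and 120 FPKM in HI and at 106, 81.7, 99.2 and 101 FPKM in LO (difference -0.50, limma adjusted p = 0.0669). Eif4b, which stimulates that helicase, was at 115, 102, 143 and 102 FPKM in HI and at 52.5, 74.1, 55.1 and 95.8 FPKM in LO (-0.76, limma adjusted p = 0.0679). In both genes the groups did not overlap, and in Eif4b the library LO M2 was near HI. Eif4a2, the second helicase, was at 93.0 ± 26.0 and 67.0 ± 8.62 FPKM, and Eif4h, the relative of Eif4b, at 132 ± 24.4 and 139 ± 8.41 FPKM (SD, n = 4 each).

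Cap recognition itself showed a different order. Eif4e, the cap-binding protein, was at 23.6, 21.7, 28.0 and 19.6 FPKM in HI and 21.8, 25, 25.4 and 28.7 FPKM in LO. The groups overlapped (difference 0.12, 95% confidence interval -0.33 to 0.57). Eif4ebp1, the inhibitor that binds eIF4E until mTOR phosphorylates it, was at 27.5, 12.0, 24.0 and 11.2 FPKM in HI and 29.9, 41.1, 29.1 and 25 FPKM in LO. LO M2 was below HI F1, and HI F2 and M2 were far below all others. Its difference of 0.79 (95% confidence interval 0.07 to 1.51) was the highest of the 46 and did not pass (limma adjusted p = 0.194).

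Set against its target, the ratio of Eif4ebp1 to Eif4e FPKM was 1.17, 0.554, 0.859 and 0.573 in HI and 1.38, 1.64, 1.15 and 0.870 in LO. The ratios overlapped, since LO M1 and LO M2 lay below HI F1. Eif4ebp2, the second inhibitor, was at 23.7 ± 4.10 FPKM in HI and 22.3 ± 4.29 FPKM in LO. Eif4g1, the scaffold of the cap complex, was at 44.6 ± 12.2 and 36.7 ± 5.80 FPKM, and Eif4g2, a relative that lacks the eIF4E-binding part, at 319 ± 97.7 and 327 ± 87.7 FPKM (SD, n = 4 each). These 3 genes overlapped between groups.

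**Figure D4:**
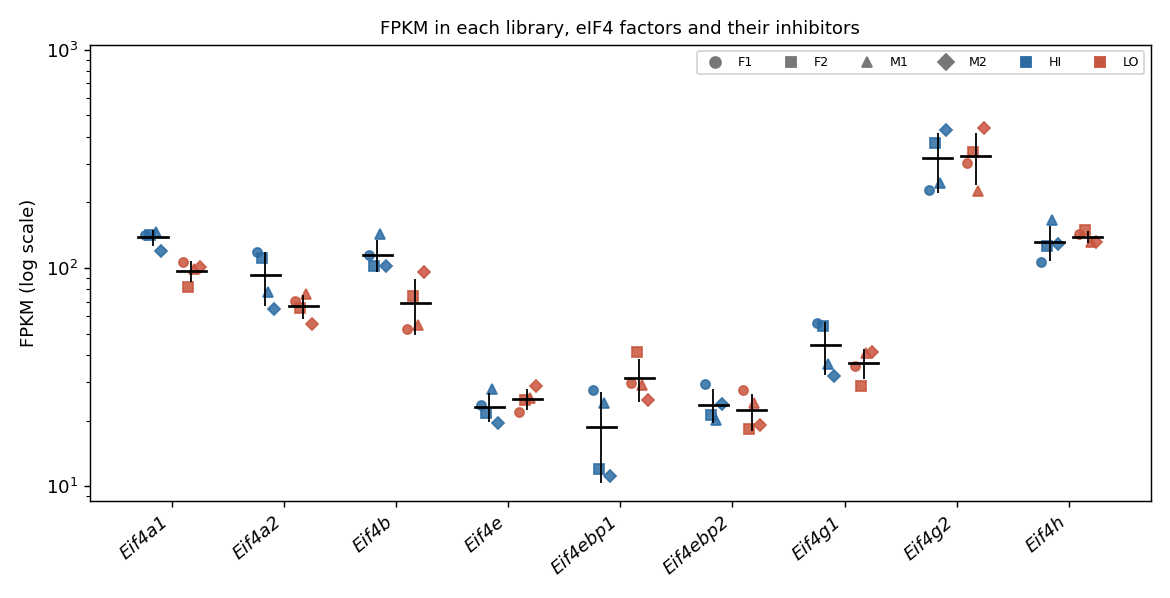
FPKM on a log axis in each library for the eIF4 factors and their inhibitors (blue HI, red LO; marker shapes for F1, F2, M1 and M2; horizontal bars are means and vertical bars SD, n = 4). Eif4a1 and Eif4b lie lower in every LO library than in any HI library without passing the test, and Eif4ebp1 shows its lowest values in HI F2 and M2.

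Female and male libraries were compared within the same table. No member passed the test for a difference between the sexes in LO minus HI, and 2 genes in all did, Traj56 and Mpc1-ps, 0.0178% of those tested (431 genes and 2 members, Eif2b2 and Eif4g1, at an unadjusted p under 0.05, limma). In male against female libraries, with the HI and LO values of a name averaged to give 2 against 2, again no member was called and 2 genes in all were, 0.0178% (377 genes and no member at an unadjusted p under 0.05). These were Traj56 and Eif2s3y, and all 3 genes are named after their values were seen. Eif2s3y is the Y-linked copy of the gamma subunit of eIF2, and was listed at 0 in all 4 female libraries and at 81.2 and 48.6 FPKM in HI M1 and M2 and 49.1 and 33.6 FPKM in LO M1 and M2. Its X-linked counterpart Eif2s3x was at 24.7 ± 4.24 FPKM in HI and 14.1 ± 5.34 FPKM in LO (SD, n = 4 each; limma adjusted p = 0.165).

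Other genes of protein synthesis were counted from lists of the same pathway, and none of their genes was called higher. Further initiation factors and partners gave 0 called of 24 tested (median -0.28), and kinases and inhibitors of translation 0 of 15 (median 0.00). Of 18 factors of elongation, termination and modification (median -0.20), 2 were lower: Dph5, which helps make the diphthamide residue of eEF2, and Btf3l4, a relative of Btf3. Dph5 was at 44.7, 37.2, 44.3 and 49.1 FPKM in HI and 19.1, 15.8, 15.4 and 19.5 FPKM in LO, a difference of -1.28 (limma adjusted p = 0.00253), with all LO libraries at well under the lowest HI library. Btf3l4 was at 34.6 ± 5.59 and 15.5 ± 5.63 FPKM (SD, n = 4 each; -1.16, limma adjusted p = 0.0260).

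Of 22 genes of cytosolic aminoacyl-tRNA synthetases and their complex (median -0.16), 2 were lower, Aimp1 and Aimp2, which are scaffolds of the complex that also holds the Eef1e1 product. Aimp2 was at 65.5 ± 5.81 FPKM in HI and 35.7 ± 9.95 FPKM in LO (SD, n = 4 each; limma adjusted p = 0.0351). Aimp1 was 1.69 times as high in HI as in LO, by mean FPKM (limma adjusted p = 0.0408). The synthetases proper gave no call. Among 11 mitochondrial translation factors 1 was lower, C1qbp (196 ± 21.6 and 113 ± 17.6 FPKM, SD, n = 4 each; limma adjusted p = 0.0115), and the list's median was -0.12.

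Cytosolic ribosomal protein genes had a wider median difference than any group of the translation factors, with no test of that contrast. Of 77 tested, 71 were lower, all 77 had LO libraries below HI libraries, and the median was -1.19. Nucleolar ribosome biogenesis genes had 9 of 46 lower, the same count as the translation factors, and a median of -0.53, with the smallest p for Npm1, Rrp9, Nop10 and Nop58. The summed FPKM of the 46 translation factors over that of the ribosomal proteins was 0.125, 0.128, 0.108 and 0.136 in HI and 0.168, 0.208, 0.153 and 0.282 in LO. Each LO ratio was above each HI ratio, so the factor messages made up more relative to ribosomal protein messages in LO, although both sums were lower. Scaled without ribosomal, mitochondrial and member genes, 4 members were called, and 34 had a difference below 0 with a median of -0.28 (all tested genes 0.07).

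**Figure D5:**
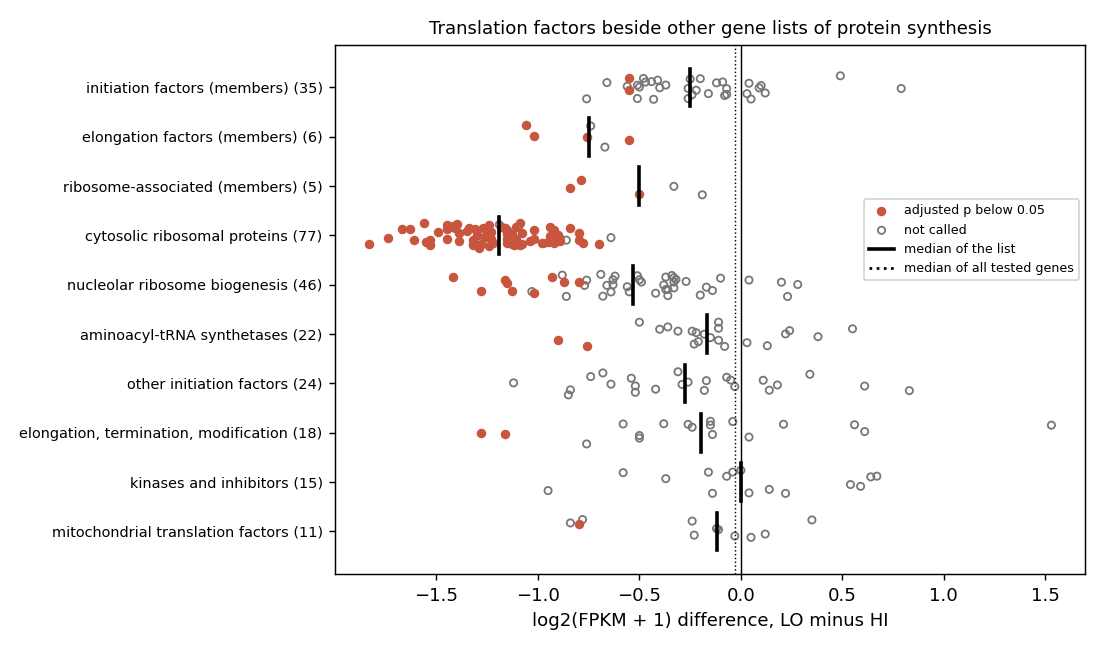
Difference between LO and HI (x axis, log2(FPKM + 1), LO minus HI) for each tested gene of the translation factor groups and of other lists of protein synthesis, with the number of genes in brackets, filled where the adjusted p was below 0.05. Ribosomal proteins lie furthest to the left with a median of -1.19, and elongation factors next at -0.75. Nucleolar ribosome biogenesis genes follow at -0.53 and ribosome-associated members at -0.50. Initiation factors, at -0.25, lie near the remaining lists.

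Markers of other cells and states differed between the groups beside these results. Summed levels of 10 B cell genes were 157 to 273 FPKM in HI and 75.4 to 110 FPKM in LO (4 of 8 tested lower), of 6 plasmacytoid dendritic cell genes 378 to 624 and 271 to 367 FPKM (3 of 6 lower), and of 6 plasma cell genes 127 to 152 and 183 to 276 FPKM (2 of 6 higher). The 2 higher plasma cell genes were Jchain (mean 10.8 FPKM in HI and 89.0 FPKM in LO) and Prdm1 (3.09 and 22.0 FPKM). Of the 4 uncalled ones, Sdc1 and Irf4 had differences above 0, and Mzb1 (9.66 and 4.95 FPKM) and Xbp1 (112 and 104 FPKM) below 0. Sums of 2 CD8 genes were 36.8 to 46.5 FPKM in HI and 24.2 to 33.6 FPKM in LO, and of 5 NK cell genes 4.71 to 12.7 and 0.602 to 7.58 FPKM (1 of 2 tested lower). Myeloid genes overlapped, at 413 to 638 and 392 to 664 FPKM (2 of 9 lower), as did erythroid and platelet genes at 20.6 to 111 and 11.2 to 212 FPKM, with Ppbp at 0 in all 8 libraries and none of 3 tested called. Genes of the cell cycle were at 218 to 297 FPKM in HI and 530 to 843 FPKM in LO, with 9 of 12 higher, while no translation factor was called higher. The part of these cells and states in the members' differences was not tested.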

How the data were processed

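Per the labels' protocols, RNA of 8 sorted Treg samples was sequenced from SmartSeq2 libraries. Values are deposited as FPKM (fragments scaled by transcript length and library size), which the authors made with Cuffnorm, as the deposited file is named. The submitters' processing notes name the tools HISAT2, cutadapt and FastQC and 2 builds, mm9 and NCBIM37. The sources used here do not give library scaling, annotation or strand use, so reads of overlapping genes or of pseudogene copies may be counted for a member. The series design text describes another experiment and was not used.

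FPKM were used as deposited. Gene symbols were matched by Ensembl identifier (31840 of 36811) to a GENCODE annotation of another build, and no coordinates of that table are given. Relative depth was read from the steps between low values below 2 FPKM, and read totals are unknown. For the 11260 genes with 1 FPKM or more in 4 or more libraries, limma (3.58.1, in R 4.3.3; eBayes with a variance trend) was run on log2(FPKM + 1), LO against HI without covariates, with Benjamini-Hochberg adjustment over all tested genes at 0.05. This scale understates changes of low genes. Folds were taken between group means of FPKM. The fit was tested on simulated data. Sex was tested as an interaction and on name means. Members, lists and settings were chosen with earlier results of these data known. Named were all members, up to 4 called genes of each other list by smallest p, and some uncalled genes for context. Alternatives changed the pseudocount, filter, scaling, variance model and covariates, or left out libraries. Promoter windows came from RefSeq (GRCm38.p6), and the 10 members without one are not analysed there.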

Additional observations from a re-analysis of the deposited data

Results flagged for a closer look

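In 2 of the 92 groups of 4 libraries that the members give, 1 library stood apart from the other 3, where chance gives about 1 in 20. Eef1b2 in LO M2 was at 352 FPKM, with the other LO libraries at 488 to 511 FPKM, so it lay further from HI than they did. Eif2b2, a regulatory subunit of eIF2B, was at 170 FPKM in LO F2, with the others at 115 to 124 FPKM. The relative depth of LO M2 was 5.27 times that of HI F1, with the other LO libraries at 0.818 to 1.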

How the results depend on the processing

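Over 21 alternative settings, Rack1, Eef1b2 and Eef1g were called lower in every one, Eef1d in 20 (not when scaled without ribosomal, mitochondrial and member genes, limma adjusted p = 0.0503), Tpt1 in 20 (not under quantile normalization, 0.0940), Eif5a in 15, Naca in 8, Eef2 in 7 and Eif5 in 6. Differences ran from -1.13 to -0.84 for Eef1b2, -1.13 to -0.86 for Eef1g, -0.90 to -0.37 for Rack1, -0.88 to -0.33 for Tpt1, -0.60 to -0.27 for Eif5a and -0.65 to -0.28 for Eef2. No member was called higher in any, 30 were called in none, and 7 uncalled members were called in at least 1, among them Eef1a1 in 5. Quantile normalization gave 5 called members, scaling without ribosomal, mitochondrial and member genes 4, and eBayes without a trend 5, while leaving out 1 library at a time gave 5 (without LO M1) to 9. Without the shallowest and the deepest library there were 8. Over all genes 642 to 980 were called in the planned settings. For the sex interaction the count was 1 without a filter and 1 to 2 leaving out 1 library. For male against female libraries it was 1 at a pseudocount of 0.1, 1 without a filter and 0 to 3 leaving out 1 library. The cause was not tested.

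The labels do not state that same-named libraries are pairs, and correlations of their deviations were 0.052, 0.015, 0.070 and 0.113. HI F1, M1 and M2 correlated best with the LO library of their own name, a hint from the data, and HI F2 with LO F1. With the replicate block, 771 genes and 7 members were called: Eif3f was added (limma adjusted p = 0.0422), and Eef2 (0.0861), Eif5 (0.0994) and Naca (0.0576) did not pass. An added covariate for the number in the name (chosen after seeing the data) gave 1032 genes and 13 members. Among named pseudogene models, Tpt1-ps3 reached at most 4.18% of the Tpt1 value of the same library, and Eif1-ps1 at most 10.6% of that of Eif1. Depth in reads is unknown, so no counting error can be given.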

Other observations

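Some translation factors also differed between libraries of number 1 and number 2, a pattern noticed after the values were seen and given without a test. In HI, both number 2 libraries (F2 and M2) were below both number 1 libraries (F1 and M1) in 26 of the 46 members (56.5%, against 23.3% of tested genes). In LO the order was the other way for 17 members (37.0%, against 23.4% of tested genes), among them Eef1a1, Eef2, Eif3b, Eif3d and Eif6, and the same as in HI for 10 members (21.7%, against 17.4%). In HI, 4 members (8.7%, against 14.0%) had number 2 above number 1. Summed immediate early genes, which respond to handling and activation, were 3900, 498, 1436 and 362 FPKM in HI F1, F2, M1 and M2, and 5233, 565, 1679 and 476 FPKM in LO, so the number 1 libraries were higher in both groups. Their part in the members' order was not tested.

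Ratios within pairs of related factors varied by library. Eef1a1 over Eef2 ranged over 4.56 to 4.93 in HI and 3.92 to 5.10 in LO. Eif4a1 over Eif4a2 was 1.20 to 1.89 and 1.24 to 1.82. Eif1 over Eif1b ranged over 3.13 to 6.87 in HI and 2.36 to 8.17 in LO; LO M2 was lowest and LO F1 highest.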
